A study of Canis lupus familiaris with 32 samples.

Results

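ENSCAFG00000009633 was the only gene to meet all of the limits set here on group means. It was nearly absent from embryonic dog hip and present in capsule and ligament of all postnatal groups. Its means in young dogs and adult controls lay within 2-fold of each other, with the controls higher in both tissues. It was chosen by group means of CPM, the depth-scaled count of a gene relative to the fragment total of its library. The mean over embryonic hip had to be below 0.5 CPM, each of the 6 postnatal group means had to be at least 5 CPM, and the young and control means had to lie within 2-fold of each other in each tissue. Of 24580 genes listed, 1 met these limits, so what follows describes a single gene rather than a set. With an embryonic limit of 1 CPM in place of 0.5, 7 genes met them. Since all 7 group means entered this choice, the levels by group are a description. No test is given for embryonic against postnatal groups or for young against control, the contrasts the rule used. Contrasts it did not use were tested, on libraries whose means it had bounded. The table lists genes by Ensembl identifier, and 0 of these identifiers were paired with a symbol by the reference table used here. The symbol, product and genome position of ENSCAFG00000009633 are therefore not stated, and no role can be given for it.

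RNA was sequenced from hip soft tissues of dogs, a species in which hip dysplasia arises naturally. The 32 libraries, from 25 dogs, were made from rRNA-depleted total RNA of separate tissue samples. Capsule came from 6 young dogs under 1 month of age, 5 adult controls and 4 affected dogs (1 adult and 3 aged 4 months). Teres ligament came from 4 young dogs under 1 month, 3 adult controls and 7 affected dogs (4 adults and 3 aged 4 months), and 3 libraries came from whole embryonic hip. No genotype, strain or treatment was given for any group. Replicates of a group were different dogs, and from 7 dogs both tissues were sequenced. Library totals lay between 2857235 and 9895143 fragments. The labelled tissues could not be checked against marker genes, because the identifiers carry no symbols.

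The joint capsule is a fibrous sleeve with a synovial lining, and the teres ligament is a cord within the joint that ties the femoral head to the acetabulum. In the embryo these structures are condensed from mesenchyme together with the cartilage of the future joint. After birth they begin to bear load, their collagen matrix is remodelled, and vessels, nerves, fat and resident immune cells fill in around the fibroblasts. In bulk tissue RNA, fewer cells of a type and less RNA per cell cannot be told apart. The embryonic sample was whole hip and not capsule or ligament, so age and tissue cannot be told apart in any value set against it.

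In embryonic hip ENSCAFG00000009633 was close to the limit of detection. The 3 embryonic libraries held 1, 3 and 4 fragments of the gene, which are 0.193, 0.504 and 0.719 CPM. Their mean was 0.472 ± 0.264 CPM (SD, n = 3), just inside the limit of 0.5, and 2 of the 3 libraries were above that limit on their own. Together they held 8 fragments among 16713889, or 0.479 CPM with an exact 95% Poisson interval of 0.207 to 0.943 CPM. The interval covers counting error only, and it includes the limit, so the depth does not fix on which side of 0.5 CPM the gene lies. Without embryo replicate 1, the lowest of the 3, the embryonic mean exceeded the limit and no gene met the rule.

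In young dogs the gene stood at an even level, with the lowest means of the postnatal groups. The 6 young capsules held 8.14 to 10.6 CPM with a median of 8.46 and a mean of 9.02 ± 1.11 CPM (SD, n = 6). The 4 young ligaments stood at 10.3, 10.6, 10.7 and 9.80 CPM, a mean of 10.3 ± 0.409 CPM (n = 4). No young library lay apart from the others of its tissue. The lowest of all 29 postnatal libraries, young capsule replicate 6 at 8.14 CPM, was 11.3 times the highest embryonic library.

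Adult control levels were higher and more spread. The 5 control capsules stood at 17.5, 23.2, 8.71, 14.9 and 12.6 CPM (mean 15.4 ± 5.42, n = 5), so that control replicate 3 fell within the range of young capsules and control replicate 2 was the highest library of the series for this gene. The 3 control ligaments stood at 17.6, 20.03 and 12.5 CPM (mean 16.7 ± 3.82, n = 3), all above the 4 young ligaments. The control mean was 1.70 times the young mean in capsule and 1.62 times in ligament, inside the limit of 2-fold that the choice of the gene imposed. Young and control capsules overlapped. Among genes with at least 1 CPM in either group, young libraries lay wholly below controls for 14.7% of 14075 genes in capsule and 18.6% of 13706 genes in ligament. Nothing is read from the gene's order here, because the rule used this contrast.

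Affected dogs had mean levels between those of young and control dogs in both tissues. Affected capsules stood at 10.4 CPM in the adult dog and at 10.96, 12.8 and 9.72 CPM in the 3 dogs aged 4 months (mean 10.97 ± 1.32, n = 4). Affected ligaments ran from 10.3 to 19.4 CPM with a median of 13.95 and a mean of 14.3 ± 3.45 CPM (n = 7). These ligaments came from 4 adults (mean 13.03 CPM) and 3 dogs aged 4 months (mean 15.9 CPM). The ranges of both affected groups overlapped those of their controls and those of the young dogs of the same tissue. The place of the affected means between the other 2 was not tested.

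**Figure D1:**
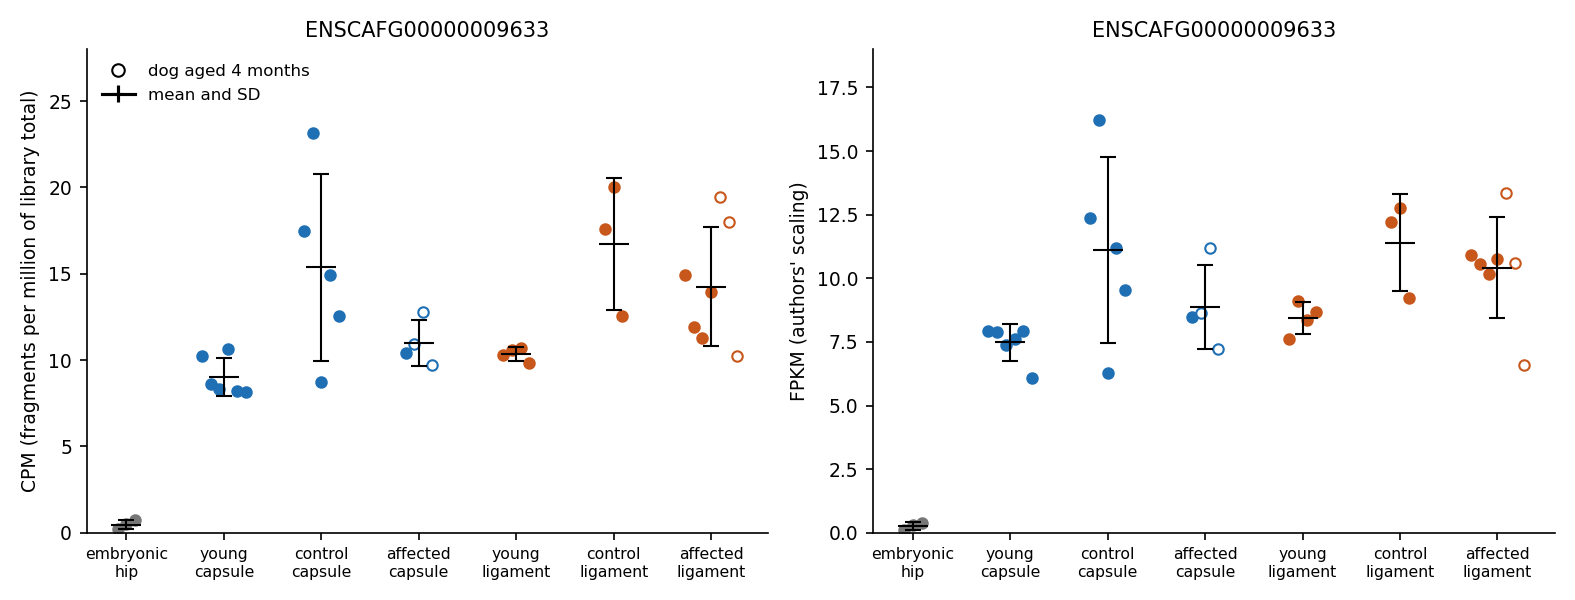
Level of ENSCAFG00000009633 in each of the 32 libraries by group, as CPM (left) and as the authors' FPKM (right). Points are libraries (open for dogs aged 4 months) and bars are the mean and SD of the group. Embryonic libraries lie at 0.719 CPM or less, and all postnatal libraries at 8.14 CPM or more.

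Ordered by mean CPM, the groups ran from control ligament (16.7) through control capsule (15.4), affected ligament (14.3), affected capsule (10.97), young ligament (10.3) and young capsule (9.02) to embryonic hip (0.472). Each neighbouring pair of postnatal groups had overlapping ranges, with differences of 0.627 to 3.28 CPM, and in each pair the difference was smaller than the larger of the 2 SDs except for young ligament over young capsule (1.33 CPM, SDs 0.409 and 1.11). The step from young capsule to embryonic hip was 19.1-fold in group means, without overlap. All 6 postnatal groups lay wholly above embryonic hip. Among genes with at least 1 CPM in either group, the same held for 7.53% in young capsule, 16.6% in control capsule, 12.6% in affected capsule, 10.6% in young ligament, 18.6% in control ligament and 11.8% in affected ligament, and nothing is read from the gene's place among them.

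The size of the embryonic difference rests on few fragments. Pooled over libraries, the 6 young capsules held 300 fragments of the gene, a level 18.8 times that of the embryonic pool (exact 95% binomial interval 9.40 to 43.9). The 3 control ligaments, the highest group, held 255 fragments, 35.2 times the embryonic pool (17.6 to 82.5). These intervals cover counting error and leave out the spread between dogs. The rule required a low embryonic mean and higher postnatal means, so a high ratio was fixed in advance. The intervals are a description and not a test.

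FPKM, the authors' values scaled per library and per gene length, gave the same picture with less spread between groups. Mean FPKM was 0.268 ± 0.146 (SD, n = 3) in embryonic hip, 7.48 ± 0.709 (n = 6) in young capsule and 8.43 ± 0.638 (n = 4) in young ligament. Control capsule and control ligament averaged 11.1 ± 3.65 (n = 5) and 11.4 ± 1.90 (n = 3) FPKM. On this scale the controls were 1.49 times the young mean in capsule and 1.35 times in ligament, closer together than in CPM. The distance to the embryo was wider, with young capsule at 27.9 and control ligament at 42.5 times the embryonic mean. The 10 most abundant genes took 12.01% to 12.8% of fragments in embryonic libraries and 12.9% to 33.0% in postnatal ones, a share that bears on the CPM of all other genes, and its part in these differences was not tested.

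Per length, the gene stood near the middle of detected genes after birth and low among them in the embryo. Its mean FPKM exceeded that of 53.3% of the genes detected in young capsule and of 62.6% in control ligament. In embryonic hip it exceeded 11.4% of 17869 detected genes. Its relative length, from the ratio of the authors' scaled fragments to FPKM, was 0.548 times the median of the 9630 genes with at least 5 CPM in every postnatal group, and 24.8% of these were shorter. All 32 values of the gene carried the status OK in the authors' table.

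Few genes came near the embryonic limit. Of the 7791 genes that met the postnatal limits and the young to control ratio, the median embryonic level was 42.1 CPM and 1 gene was below 0.5 CPM. For 1972 of these genes, the mean over the 6 postnatal groups was within 1.5-fold of 12.8 CPM, that of ENSCAFG00000009633. Their embryonic levels had a median of 19.5 CPM, and 78.9% of them had a higher level in embryo than after birth. The rule used the embryonic level, so nothing is read from the gene's place among them. The nearest genes outside the embryonic limit were ENSCAFG00000025332, at 0.672 CPM in embryo and 10.52 to 42.2 CPM in postnatal group means, and ENSCAFG00000010042, at 0.783 and 31.6 to 64.1 CPM. The nearest outside the postnatal limit were ENSCAFG00000016571, whose lowest postnatal mean was 3.29 CPM, and ENSCAFG00000012874, at 1.96 CPM.

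Without the limit on the young to control ratio, 5 further genes met the rule. All 5 had higher means in controls than in young dogs in both tissues. Nothing is read from this direction, because these genes were set apart by that ratio and the share of all genes with this order is not given. By the larger of the 2 ratios, ENSCAFG00000013694 was closest to the limit, with a control mean 1.99 times the young mean in capsule and 2.84 times in ligament. It had 0 fragments in the 3 embryonic libraries and 1 to 2958 fragments in single postnatal libraries. ENSCAFG00000004175 was next, with control means 3.82 and 3.61 times the young means. In ligament alone ENSCAFG00000007419 was closer, at 2.03 times, but it stood at 6.43 times in capsule. ENSCAFG00000005863 was farthest, at 27.9 times in capsule and 7.22 times in ligament. From lowest to highest postnatal library, ENSCAFG00000009633 spanned 2.85-fold in CPM, against 17.2-fold for ENSCAFG00000004175 and more for the other 4 genes. Since the ratio limit itself removes genes with a wide spread between young and adult dogs, this difference follows in part from the choice and was not tested.

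**Figure D2:**
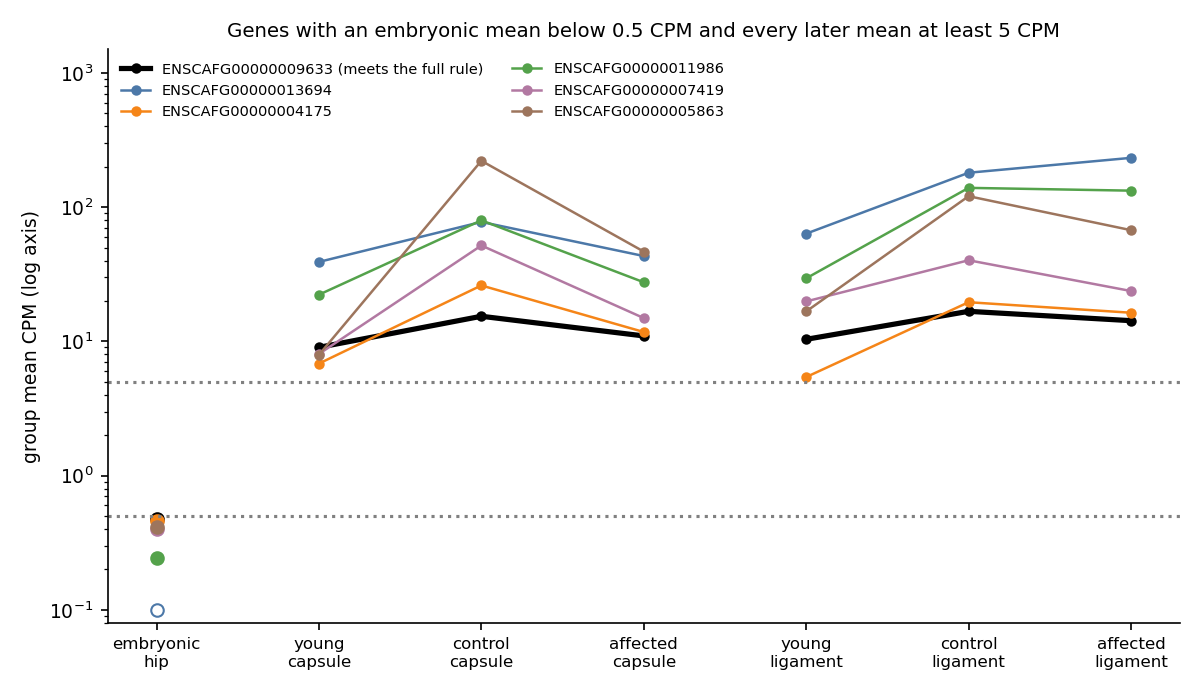
Group mean CPM (log axis) of the 6 genes with an embryonic mean below 0.5 CPM and every postnatal mean at least 5 CPM (dotted lines mark both limits). The open circle marks a gene with 0 fragments in embryonic hip, drawn at the foot of the axis. ENSCAFG00000009633 (black) lies between 9.02 and 16.7 CPM after birth. It met the limit on the young to control ratio and the other genes did not, so its flatter profile follows in part from the choice.

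Over the 29 postnatal libraries ENSCAFG00000009633 was counted at 38 to 112 fragments per library. Its coefficient of variation (CV, the SD as a percentage of the mean) was 31.6% in CPM and 24.8% in FPKM, where fragment counting alone gives about 13.1%. It was set beside the 5139 genes of 5 to 50 CPM that met the same postnatal and ratio limits, since those limits cap the spread. Of these, 54.3% had a lower CV in CPM and 30.8% in FPKM, with medians of 30.7% and 28.9%, so the gene's place depended on the scale and was not at either end. Within young capsules its CV was 12.3% in CPM and 9.48% in FPKM (medians 22.2% and 18.9%). Within young ligaments it was 3.95% in CPM and 7.57% in FPKM (medians 20.1% and 17.98%). In young capsules 8.48% of the 5139 genes had a lower CV in CPM and 6.19% in FPKM. In young ligaments these shares were 0.876% and 7.14%, so the gene lay toward the low end within the young groups. Counting alone gives about 14.3% and 11.9% in these groups, and a CV from 6 or 4 libraries is itself imprecise.

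**Figure D3:**
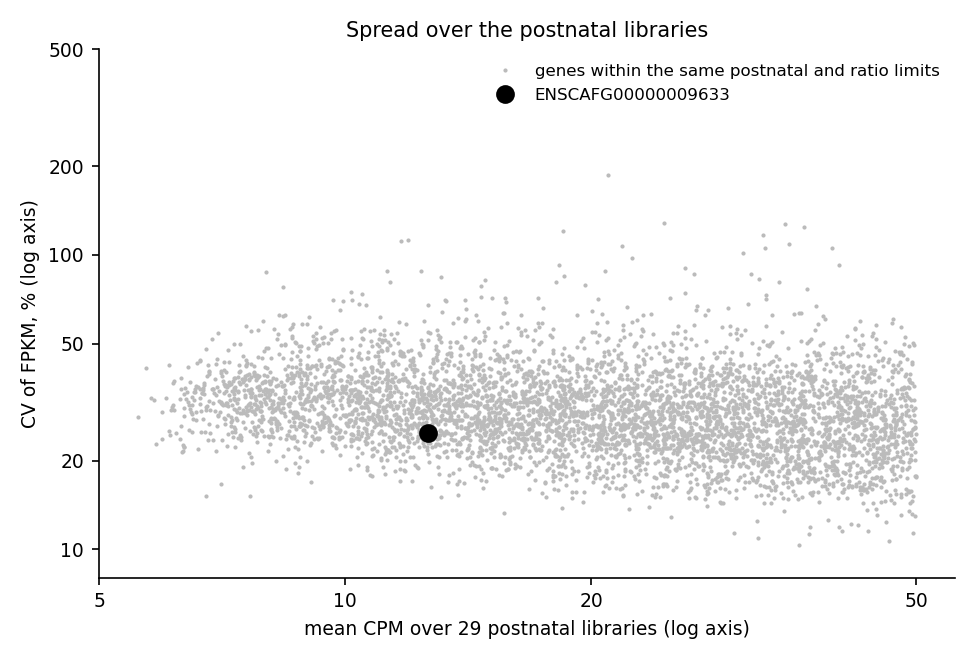
CV of FPKM over the 29 postnatal libraries against mean CPM, both on log axes, for the 5139 genes of 5 to 50 CPM that met the same postnatal and ratio limits. ENSCAFG00000009633 (black) lies at a CV of 24.8%, against a median of 28.9%, within the bulk of these genes.

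Affected and control capsules were compared to ask whether dysplastic hips differ at this gene, a contrast the rule did not use. It did bound both means from below and kept the control mean within 2-fold of the young mean. The rule set no limit on the ratio of affected to control means. Affected capsules (9.72 to 12.8 CPM) lay inside the range of control capsules (8.71 to 23.2 CPM). The log2 fold change of ENSCAFG00000009633 was -0.32 (SE 0.30, 95% interval -0.96 to 0.32), a level 1.25 times lower in affected capsules that did not pass the test (edgeR unadjusted p = 0.301, adjusted p = 0.997). In this comparison 0.236% of 12718 genes, or 30, were called at an adjusted p under 0.05. That count was 141 with DESeq2, and leaving out 1 library gave 2 (without control replicate 1) to 41 (without affected replicate 1). Dropping control replicates 2 to 5 in turn left 18, 7, 11 and 7 genes. Dropping affected replicate 2 left 10, and dropping replicate 3 or 4 of that group left 4. ENSCAFG00000009633 was not among the called genes in any of these fits. All controls were adult, while 3 of the 4 affected dogs were aged 4 months. These 3 dogs carry identifiers with a common beginning that the other dogs of this comparison lack, and its part was not tested. With age class as a covariate, where 1 adult affected capsule carries the disease term, the log2 change was -0.44 (edgeR adjusted p = 0.892). The interval is wide, so equal levels are not shown. Without control replicate 2, the library with the highest value, the log2 change was -0.15. It was -0.49 without control replicate 3, the lowest control.

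In ligament, adult affected dogs were compared with adult controls. The adult affected ligaments stood at 14.9, 11.9, 11.3 and 13.95 CPM (mean 13.03 ± 1.70, n = 4), and the controls at 12.5 to 20.03 CPM, so the groups overlapped. The log2 fold change was -0.13 (SE 0.24, 95% interval -0.67 to 0.40, edgeR adjusted p = 0.761). No gene was called here, 0% of 12505 with edgeR, while DESeq2 called 66 and 2374 passed 0.05 before adjustment in edgeR. When the lowest control, replicate 3, was left out, edgeR called 1850 genes, and ENSCAFG00000009633 was still not among them at a log2 change of -0.28 (adjusted p = 0.420). Without control replicates 1 or 2 its log2 change was -0.08 and -0.05. Whether the disease effect differs between capsule and ligament was not tested.

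Among affected ligaments, the age classes were compared. The 3 dogs aged 4 months stood at 19.4, 17.98 and 10.3 CPM (mean 15.9 ± 4.93, n = 3), holding both the highest and the lowest affected ligament. The 4 adults lay between (mean 13.03 ± 1.70, n = 4), so the mean in CPM was higher at 4 months. In FPKM the order was the opposite, with means of 10.2 ± 3.41 (n = 3) at 4 months and 10.6 ± 0.321 (n = 4) in adults. On TMM-scaled libraries the log2 fold change was -0.03 (SE 0.26, 95% interval -0.61 to 0.55, edgeR adjusted p = 0.954), in a comparison where 14.6% of 12619 genes, or 1841, were called. That count was 549 without replicate 6, 803, 826 and 845 without replicates 2, 3 and 7, and 1230 to 2203 without each of the others. The direction thus depends on the scaling, and the fitted sign also turned without affected replicate 7, the lowest library, to 0.20 (adjusted p = 0.642), and the change was -0.30 without replicate 5, the highest (adjusted p = 0.547). The 3 dogs aged 4 months carry identifiers with a common beginning that the adults lack. In this comparison what it stands for cannot be told apart from age. Outside this comparison, 1 young dog carries it too.

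The tissues were compared dog by dog in the 7 dogs with both libraries. In CPM the capsule was lower in 7 of 7 dogs, an order that 3.48% of 13725 genes with at least 1 CPM shared. The control dog, the only adult, had 8.71 CPM in capsule and 17.6 CPM in ligament. The affected dogs, all aged 4 months, had 10.96 and 19.4, 12.8 and 17.98, and 9.72 and 10.3 CPM. The young dogs, all under 1 month, had 10.2 and 10.3, 8.61 and 10.6, and 8.14 and 9.80 CPM. No adult affected dog gave both tissues. Capsule thus held 0.495 to 0.997 times the CPM of the ligament, and the control dog and 2 of the affected dogs showed the widest gaps. In FPKM the capsule was lower in only 4 of the 7 dogs, so the direction in single dogs depends on how libraries are scaled. With the dog as a block, the log2 fold change was -0.31 (SE 0.19, 95% interval -0.72 to 0.09) and did not pass (edgeR adjusted p = 0.523), while 3.4% of 13956 genes were called. Without the control dog the log2 change was -0.21.

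**Figure D4:**
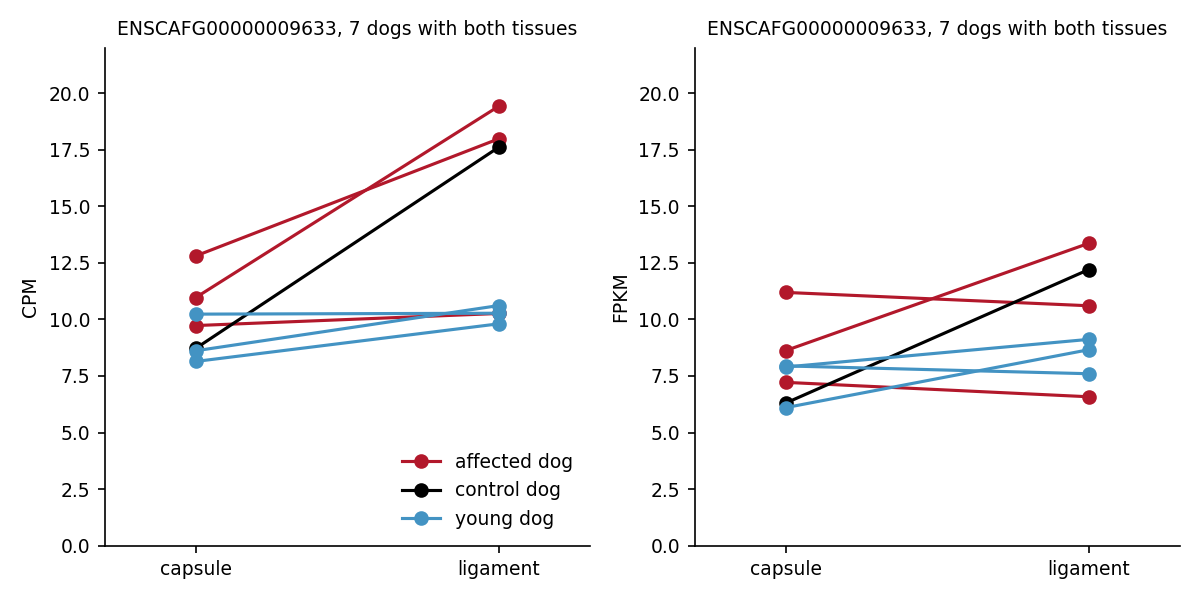
ENSCAFG00000009633 in capsule and ligament of the 7 dogs with both tissues, in CPM (left) and FPKM (right). Each line joins the tissues of 1 dog. Capsule is lower in 7 of 7 dogs in CPM and in 4 of 7 in FPKM.

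In all 4 tested contrasts ENSCAFG00000009633 was not called, and its fold changes lay near the middle of all genes tested in 2 of them. Its log2 change was above that of 41.9% of genes in adult ligament and 46.3% in the 4-month comparison, against 14.3% in the case and control comparison of capsule and 15.1% between the tissues. The contrasts share affected and control libraries and are not independent.

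**Figure D5:**
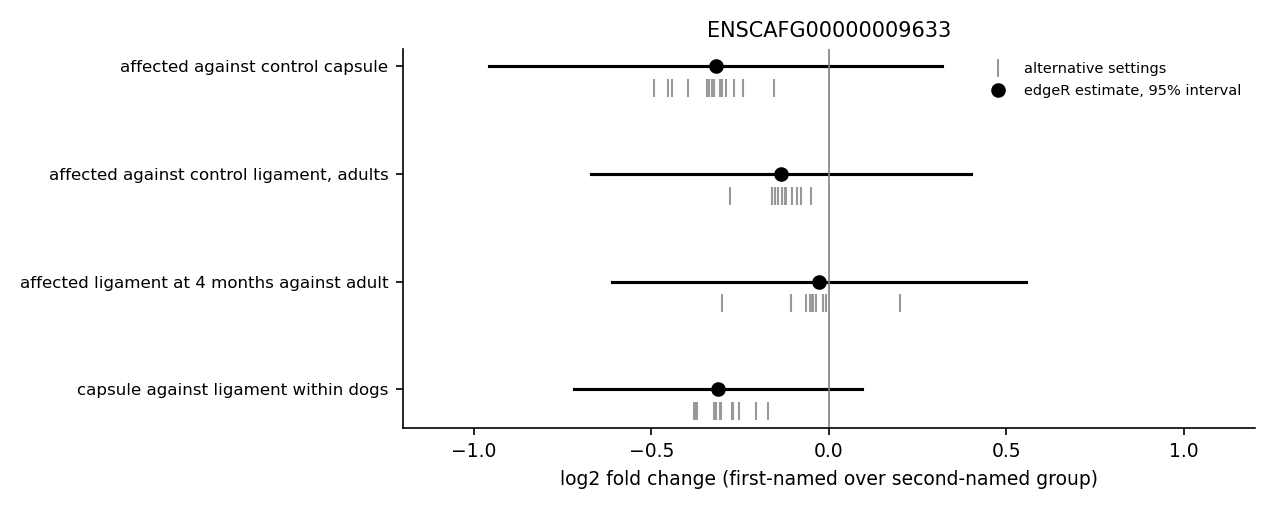
Log2 fold change of ENSCAFG00000009633 in the 4 comparisons (circle, edgeR estimate; line, 95% interval), with the values under alternative settings as ticks beneath. All 4 intervals include 0, and only the comparison of 4 months with adult has an alternative on the other side of 0 (0.20).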

How the data were processed

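The authors' table of all 32 samples was used, and the separate capsule and ligament tables hold the same libraries and were not used. Per the file headers, its columns are an unscaled estimated count of fragments, a scaled fragment signal that the authors obtained by dividing by 1 factor per library, and FPKM. The genome was canFam3 and the tools named were Cuffdiff 2.2.1, TopHat2 2.0.13, Bowtie2 2.2 and cutadapt 1.8, per the submitters' processing notes. The tools' roles, the annotation release and the strandedness of counting were not given in the sources used here. Fragments shared with overlapping or near-identical genes, and antisense reads, are therefore an uncertainty for each identifier. Estimated counts were whole except for 0.332% of values (tolerance 1e-06) and were rounded for testing.

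Group means used CPM on plain library totals. Tests used edgeR 4.0.16 (R 4.3.3) on the libraries compared, with filterByExpr, TMM factors and robust quasi-likelihood F tests. P-values were Benjamini-Hochberg adjusted over all genes tested, with a threshold of 0.05. SEs derive from the F statistic, and 95% intervals use its t quantile. The dog was a block for capsule against ligament, since the labels give the same dog for both. Alternatives were DESeq2 1.42.0, relative log expression factors, no filter, limma 3.58.1 on log2(FPKM + 0.5) for genes at 0.5 FPKM or more, covariates, blocks and libraries left out. The capsule and the within-dog fits were tested on simulated data. The lowest chi-square per gene among 64 replicate pairs was 4.24, so no library duplicated another of its own group within counting noise. Pairs across groups were not examined.

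The limits that chose the gene, the comparisons and the rule for named genes (the genes nearest each limit, here extended to all 5 outside the ratio limit after their values were seen) were set with earlier results of these data known. Marker lists by symbol could not be applied.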

Additional observations from a re-analysis of the deposited data

How the results depend on the processing

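The number of genes that met the rule, 1 on plain CPM, was 0 with an embryonic limit of 0.25 CPM, 7 with a limit of 1 CPM, 2 with a postnatal limit of 2 CPM, 0 with a postnatal limit of 10 CPM, and 6 with no limit on the young to control ratio. It stayed at ENSCAFG00000009633 alone on TMM-scaled CPM and on the authors' scaled fragments. With group medians it was again 1, but the gene was ENSCAFG00000010042, since the embryonic median of ENSCAFG00000009633 is 0.504 CPM. Leaving out 1 library gave 0 to 3 genes: 0 without embryo replicate 1, 3 without embryo replicate 3 and 1 otherwise. In the 4 tests, 0 members were called under every alternative run. The log2 fold change ran from -0.49 to -0.15 in capsule, from -0.28 to -0.05 in adult ligament, from -0.30 to 0.20 at 4 months against adult (reversed at 0.20 without affected replicate 7, a value within its interval) and from -0.38 to -0.17 between capsule and ligament.

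With the replicate number as a block, the log2 change was -0.33 in capsule (edgeR adjusted p = 1) and -0.13 in adult ligament (0.832). Same-numbered dogs are different animals, and deviations of same-numbered libraries correlated at -0.447 to 0.282 in capsule and 0.0614 to 0.252 in ligament, so the numbers do not pair them. The block called 6 genes in place of 30 in capsule and 200 in place of 0 in ligament. No paired analysis was possible for 4 months against adult because these groups share no dog. Without the dog block, capsule against ligament gave -0.32 (0.614). The embryonic value rests on 8 fragments.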
